A study of Mus musculus with 12 samples.

Results

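The 10 genes described here, Gad1, Gad2, Slc32a1, Pvalb, Sst, Vip, Npy, Cck, Calb2 and Reln, are genes by which GABAergic interneurons and their subclasses are commonly recognized, and 4 of them encode neuropeptide precursors. They were chosen by symbol among the 24079 genes of the deposited count table, each name matched 1 row, and all 10 were among the 17823 genes with at least 15 reads over all libraries, the genes that were tested. Ribosome-bound mRNA was immunoprecipitated through HA-tagged Rpl22 from whole hippocampi of male mice aged 2 to 6 months, in 6 wild-type libraries (Wfs1-CreERT2:RiboTag) and 6 Fmr1-/y libraries (Wfs1-CreERT2:RiboTag:Fmr1-/y), each from a pool of 4 to 6 mice. Mice of both genotypes carried the tagged Rpl22 allele and the tamoxifen-inducible Cre driven by the Wfs1 promoter, and received tamoxifen (100 mg/kg) on 3 days, a week before the tissue was taken. The tag is switched on in Wfs1-expressing cells, which in the hippocampus are mainly CA1 pyramidal neurons, so the interneuron genes are those of cells the design was not aimed at. The unprecipitated homogenate was not analysed here, and the values below are levels in the precipitate and not enrichments. By qRT-PCR the paper found Gad1, Slc32a1, Sst, Npy, Pvalb and Calb2 lower in the precipitate than in the homogenate. In such bulk samples fewer cells of a type, less RNA per cell and less RNA carried over from unlabelled cells cannot be told apart.

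Interneurons of the hippocampus release GABA onto pyramidal cells and onto each other. GAD67 and GAD65, encoded by Gad1 and Gad2, make GABA from glutamate, and the vesicular transporter encoded by Slc32a1 loads it into synaptic vesicles, so these genes mark GABAergic cells as a class. Parvalbumin marks basket and axo-axonic cells that contact the soma and axon of pyramidal cells, somatostatin marks cells that contact their dendrites, and VIP and calretinin (Calb2) mark cells many of which contact other interneurons. Cck is not restricted to interneurons, since pyramidal cells make it as well, and Reln and Calb2 are also made by Cajal-Retzius cells.

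Stretches of promoter sequence (RefSeq, GRCm38.p6, 5′ to 3′ on the strand of the gene) are shown for Gad2, Slc32a1 and Sst, the members of the 2 gene pairs whose correlation among libraries passed its test, and for Cck and Reln, which were in no pair past the threshold. The windows lie at RefSeq transcript starts, and for Gad2, Slc32a1 and Sst these are downstream of the outermost gene start given with the levels, so that their stretches lie within the gene bounds. All 30 bases of the Sst stretch also lie in an exon of Sst in the GENCODE annotation, where transcription starts further upstream, and the other stretches overlap no GENCODE exon of their gene. Promoter windows were found for 9 of the 10 genes, and Calb2, which had none, was not searched. Capitals mark a CCAAT box (CCAAT), a cAMP response element (TGACGTCA) or an E-box (CACGTG), searched on both strands together with a TATA box (TATAAA).
Gad2, chr2:22622087-22622116, plus strand: cctcggccaccattCCAATcttgccaaggt
Slc32a1, chr2:158610658-158610757, plus strand: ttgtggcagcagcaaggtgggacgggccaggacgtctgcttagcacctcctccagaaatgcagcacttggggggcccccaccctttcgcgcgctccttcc
Sst, chr16:23890875-23890904, minus strand: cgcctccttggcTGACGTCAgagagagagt
Cck, chr9:121495695-121495794, minus strand: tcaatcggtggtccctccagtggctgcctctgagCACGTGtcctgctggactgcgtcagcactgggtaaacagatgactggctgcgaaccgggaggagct
Reln, chr5:22344706-22344805, minus strand: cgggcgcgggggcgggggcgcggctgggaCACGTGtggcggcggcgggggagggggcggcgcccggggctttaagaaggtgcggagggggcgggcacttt
The cAMP response element was found in the window of Sst and of no other member that had a window. It was found in 1.79% of the 32851 promoter windows, each 250 bases before to 50 after a transcript start. The E-box was found in Reln and Cck (7.15% of all windows), the CCAAT box in Gad2 and Npy (37.4%) and the TATA box in Gad1 and Vip (13.6%). None of the 4 motifs was found in the Slc32a1 window. A match describes these letters and is not a measured binding site.

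Between 39400980 and 55745464 reads per wild-type library and between 43106629 and 65565479 per Fmr1-/y library were counted on genes. The deleted gene, Fmr1, was counted 1971 to 2608 times per wild-type library, and in Fmr1-/y libraries once in replicate 2 and not at all in the other 5. The 8 CA1 pyramidal markers, among them Wfs1, Slc1a1, Slc17a7 and Camk2a, summed to between 8396 and 10422 CPM in the wild type and between 8105 and 9636 CPM without Fmr1, where CPM is the read count scaled to the effective library size by edgeR's TMM factors (counts per 1e+06). Values given as ± are SD over n = 6 libraries of a genotype unless named as standard errors (SE). The 3 genes of GABA synthesis and loading summed to between 78.8 and 182 CPM (median 104) in the wild type and between 84.6 and 125 CPM (median 108) in Fmr1-/y libraries, and none of them was at 0 in any library. The 12 glial and vascular markers summed to between 7473 and 12973 CPM in the wild type and between 9476 and 18177 CPM in Fmr1-/y libraries, and most of that sum was Ttr of the choroid plexus (8323 ± 2048 against 11319 ± 3024 CPM). The CA1 pyramidal markers of the labelled cell type were thus present in every library, and the sum of the GABA genes lay far below theirs, whereas the mean of Ttr in Fmr1-/y libraries exceeded the highest sum of the CA1 markers.

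None of the 10 genes differed between the genotypes in edgeR's quasi-likelihood test when p was adjusted by Benjamini-Hochberg over all genes tested, where 0.0224% of all genes passed 0.05. Their adjusted p ran from 0.793 to 0.986. At an unadjusted p under 0.05 there was also none of the 10, against 7.96% of all genes tested, and DESeq2 gave 0 at either threshold, against 0.571% of genes adjusted and 8.47% unadjusted. In none of the 10 did the levels of the 2 genotypes separate, a separation seen in 0.623% of all genes. The means of 4 genes were higher and those of 6 lower in Fmr1-/y libraries, where 51.4% of all genes were higher. The 95% intervals of the log2 fold changes were widest for Slc32a1 (-0.62 to 0.43) and Vip (-0.46 to 0.56) and narrowest for Reln (-0.10 to 0.33), and differences within these bounds are not excluded.

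**Figure D1:**
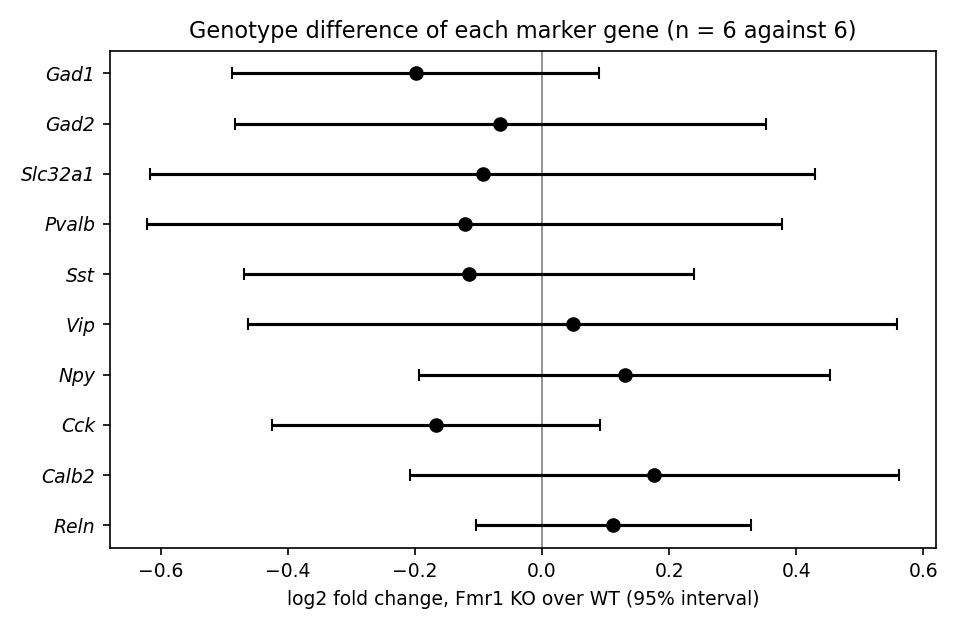
Points give the log2 fold change of each of the 10 marker genes, Fmr1-/y over wild-type (x axis), from edgeR's quasi-likelihood fit on 6 against 6 libraries, and bars give the 95% interval. All 10 intervals include 0, and the point estimates run from -0.20 for Gad1 to 0.18 for Calb2.

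Among the genes of GABA synthesis and loading, Gad1 (Entrez 14415, GRCm38 chromosome 2 from 70561303 to 70602014) ran from 47.6 to 97.6 CPM with a median of 65.4 in wild-type libraries and from 46.5 to 66.8 CPM with a median of 60.9 in Fmr1-/y libraries. The groups overlapped, and the highest value was that of wild-type replicate 4. The means were 68.2 ± 17.7 and 59.4 ± 7.28 CPM, the fold change farthest from 0 among the 10 (log2 fold change -0.20 ± 0.14 SE, adjusted p = 0.793), and 1 of 6 Fmr1-/y libraries lay above the wild-type median.

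Gad2 (Entrez 14417, chromosome 2 from 22621015 to 22693877), the gene of the GAD65 form that is concentrated at nerve terminals, ran from 20.7 to 58.2 CPM (median 27.4) in the wild type and from 25.9 to 37.2 CPM (median 32.5) in Fmr1-/y libraries. The wild-type median was the lower of the 2 although the wild-type mean was the higher, because wild-type replicate 4 stood at 58.2 and replicate 5 at 40.3 CPM. The means were 32.9 ± 14.1 and 31.4 ± 4.597 CPM (log2 fold change -0.07 ± 0.20 SE, adjusted p = 0.971).

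Slc32a1 (Entrez 22348, chromosome 2 from 158607260 to 158615747) ran from 10.54 to 27.3 CPM (median 12.3) in the wild type and from 9.75 to 21.3 CPM (median 15.9) in Fmr1-/y libraries. Wild-type replicates 4 and 5, at 26.3 and 27.3 CPM, were again the highest of all 12, and the other 4 wild-type libraries lay between 10.54 and 12.96 CPM. Its log2 fold change was -0.09 ± 0.25 (SE, adjusted p = 0.962). The ratio of Gad2 to Gad1 CPM was 0.314 to 0.596 in wild-type and 0.420 to 0.592 in Fmr1-/y libraries, and was lowest in replicate 3 of each genotype.

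Among the neuropeptide genes, Sst (Entrez 20604, chromosome 16 from 23889573 to 23891342), the precursor of somatostatin, ran from 12.4 to 24.8 CPM (median 15.01) in the wild type and from 12.9 to 17.6 CPM (median 16.5) in Fmr1-/y libraries. As for Slc32a1, the wild-type libraries were split, with replicates 4 and 5 at 24.8 and 24.3 CPM and the other 4 between 12.4 and 16.9 CPM. The means were 17.4 ± 5.77 and 16.04 ± 1.84 CPM (log2 fold change -0.11 ± 0.17 SE, adjusted p = 0.934).

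Cck (Entrez 12424, chromosome 9 from 121489824 to 121495694), which encodes the precursor of cholecystokinin, was the most abundant of the 10. It ran from 206 to 328 CPM (median 236) in the wild type and from 159 to 267 CPM (median 224) in Fmr1-/y libraries, with the highest value in wild-type replicate 1 and the lowest in Fmr1-/y replicate 4. The means were 251 ± 45.2 and 224 ± 40.1 CPM (log2 fold change -0.17 ± 0.12 SE, adjusted p = 0.815).

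Npy (Entrez 109648, chromosome 6 from 49822710 to 49829507), the precursor of neuropeptide Y, ran from 3.33 to 5.74 CPM (median 4.62) in the wild type and from 3.62 to 6.04 CPM (median 4.95) in Fmr1-/y libraries, almost the same span in both (log2 fold change 0.13 ± 0.15 SE, adjusted p = 0.907). Vip (Entrez 22353, chromosome 10 from 5639193 to 5647617), the precursor of vasoactive intestinal peptide, was the lowest of the 10, with 60 to 173 reads a library. It ran from 1.19 to 2.77 CPM (median 2.03) in the wild type and from 1.11 to 2.75 CPM (median 2.04) in Fmr1-/y libraries (log2 fold change 0.05 ± 0.24 SE, adjusted p = 0.986). Replicate 1 was the lowest library for Vip in each genotype.

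Of the calcium-binding proteins, Pvalb (Entrez 19293, chromosome 15 from 78191112 to 78206400), the calcium buffer of fast-spiking cells, ran from 4.49 to 12.3 CPM (median 5.80) in the wild type and from 4.02 to 9.88 CPM (median 5.70) in Fmr1-/y libraries. In each genotype the highest library was replicate 3, and the other 5 lay between 4.49 and 6.33 CPM in wild-type. Its log2 fold change was -0.12 ± 0.24 (SE, adjusted p = 0.948), and 0.14 without wild-type replicate 3.

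Calb2 (Entrez 12308, chromosome 8 from 110142526 to 110168212), the calretinin gene, varied more among Fmr1-/y than among wild-type libraries. It ran from 10.4 to 16.7 CPM (median 13.4) in the wild type and from 9.72 to 21.8 CPM (median 14.9) in Fmr1-/y libraries (log2 fold change 0.18 ± 0.18 SE, adjusted p = 0.886). Fmr1-/y replicates 1, 2 and 4, at 21.8, 19.5 and 17.1 CPM, exceeded all wild-type libraries, and Fmr1-/y replicates 5 and 6, at 9.72 and 9.99 CPM, lay below all of them.

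Reln (Entrez 19699, chromosome 5 from 21884454 to 22344705) encodes the secreted glycoprotein reelin, which acts through the receptors encoded by Lrp8 and Vldlr. It ran from 52.2 to 78.0 CPM (median 61.6) in the wild type and from 57.3 to 83.2 CPM (median 65.7) in Fmr1-/y libraries, and was the steadiest of the 10, its highest library being 1.59 times its lowest. The means were 63.0 ± 9.19 and 68.0 ± 9.75 CPM (log2 fold change 0.11 ± 0.10 SE, adjusted p = 0.859).

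**Figure D2:**
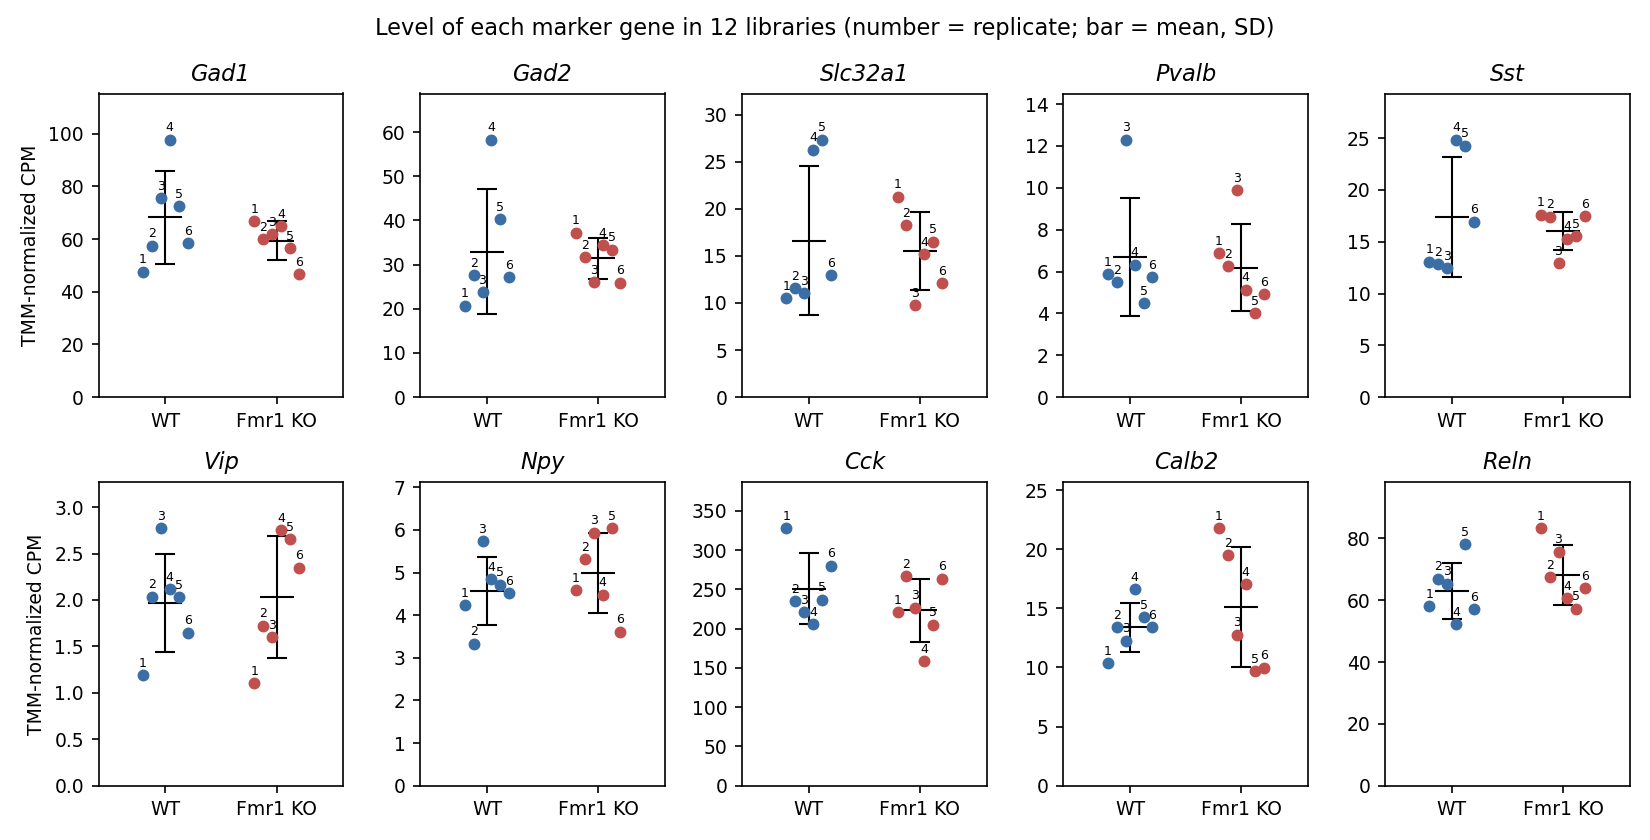
Each panel plots the TMM-normalized CPM (y axis, from 0) of 1 gene in the 6 wild-type (blue) and 6 Fmr1-/y (red) libraries, numbered by replicate, with the mean and SD as bars. Wild-type replicates 4 and 5 stand above the other 10 libraries for Gad2, Slc32a1 and Sst, and replicate 3 is the highest of each genotype for Pvalb.

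For a comparison between genes the level was divided by exon length (the union of GENCODE exons, available for 93.2% of the genes tested). Since this union counts every annotated exon, it is at least as long as any single transcript and lowers the level of genes with many annotated isoforms, such as Reln (23738 bases). On this scale Cck came first, with 192 ± 34.6 CPM per kb in wild-type and 171 ± 30.7 in Fmr1-/y libraries, above 99.1% of the genes with a length. Sst followed with 24.1 ± 8.002 and 22.2 ± 2.55 CPM per kb, and its lowest library (17.2) stayed above the highest library of every gene below it. Then came Npy, Gad1, Calb2, Pvalb, Slc32a1 and Gad2, with means over all libraries between 5.48 and 8.45 CPM per kb. Their ranges over all libraries overlapped one another, and the order of the genes within single libraries was not compared. Reln had a mean of 2.76 CPM per kb, with its highest library (3.51) inside the range of Slc32a1 and just under the lowest library of Gad2 (3.52). Vip came last with 0.587 CPM per kb and did not overlap Reln. For scale, Slc17a7, the vesicular glutamate transporter of pyramidal cells, measured 172 CPM per kb, and Slc32a1, its counterpart for GABA, 5.74 CPM per kb.

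**Figure D3:**
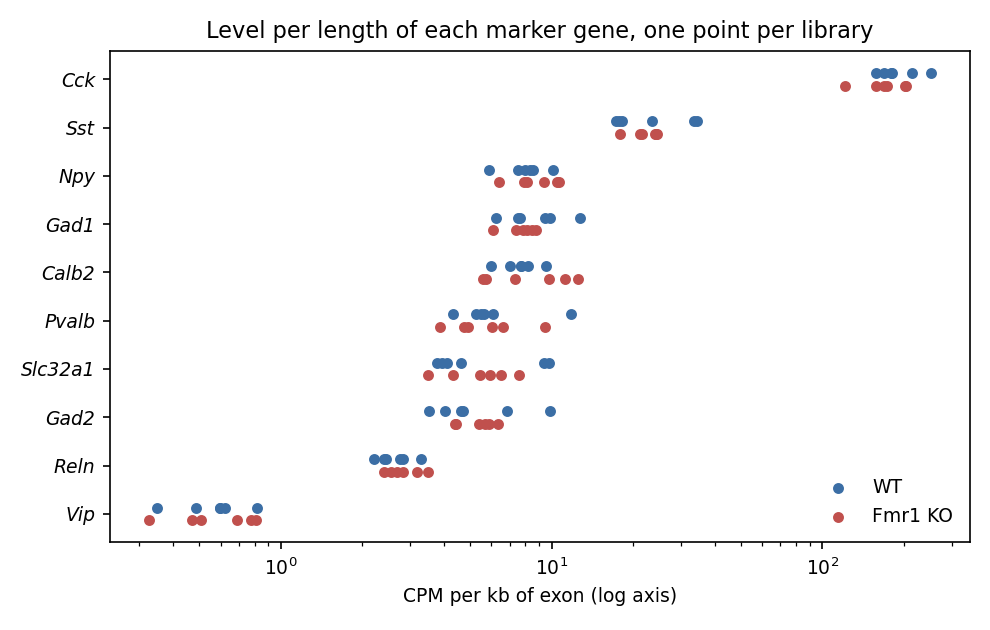
Each point is 1 library, wild-type in blue and Fmr1-/y in red, at its CPM per kb of exon on a log axis (x), with the 10 genes ordered by mean level. Cck lies between 122 and 251 CPM per kb, Vip between 0.325 and 0.815, and 6 genes share the middle of the scale with overlapping ranges.

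Among libraries of one genotype most of these genes varied more than genes of their abundance usually did. The biological coefficient of variation was estimated by edgeR from both genotypes together. It lay above the trend at the same abundance for 9 of the 10, Npy being the exception, and for 38.6% of all genes tested. It was 29.9% for Slc32a1 against a trend of 14.5%, 28.6% against 18.8% for Pvalb, 24.1% against 12.6% for Gad2, 20.5% against 14.3% for Sst and 16.9% against 11.2% for Gad1. Vip lay only just above its trend, at 28.5% against 27.2%. Counting error was smaller than the biological coefficient of variation in each of the 10, from 0.938% for Cck to 10.2% for Vip at the mean read number. The spread was unequal between genotypes for some genes. The coefficient of variation of Gad2 was 42.7% in wild-type and 14.6% in Fmr1-/y libraries, that of Sst 33.2% and 11.5%, that of Slc32a1 47.8% and 26.9%, and that of Calb2, in the other direction, 15.6% and 33.5%. These spreads were compared by their values only.

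Wild-type replicates 4 and 5 made up much of the wild-type spread of Gad2, Slc32a1 and Sst. They were the 2 highest of the 12 libraries for these 3 genes, a pattern that held for 1.48% of all genes tested, and for none of the other 7 members. As these libraries were picked because the 3 genes were high in them, that share is not a chance rate for the members. Without wild-type replicates 4 and 5, an alternative chosen after these values were seen, the wild-type coefficient of variation was 13.1% for Gad2, 9.09% for Slc32a1 and 15.1% for Sst. The log2 fold changes then turned positive, to 0.34 for Gad2 (adjusted p = 0.653), 0.43 for Slc32a1 (adjusted p = 0.734) and 0.22 for Sst (adjusted p = 0.851) in edgeR, with 0 of the 10 genes past 0.05 and none without overlap. As the libraries were left out for their high values, these changes follow in part from the choice. In the companion lists the same order was seen for 2 of 16 interneuron transcription factors, Dlx1 and Sp9. It held for 2 of 24 interneuron subclass markers (Sst and Kcnip1) and 2 of 26 neuropeptide precursors (Sst and Pnoc, the precursor of nociceptin). Sst, counted in both lists, is among the 3 genes by which the libraries were picked. Of 16 receptor and reelin pathway genes 1 had it (Sstr5, a somatostatin receptor). None of the 12 glial and vascular markers, 8 CA1 markers, 13 EF-hand genes or 10 peptide-processing genes had it. Nor had any of the 7 Cajal-Retzius markers or the 8 dentate granule and mossy cell markers. At a share of 1.48% lists this short usually hold none, so these zero counts set no cell type apart. Dlx1 stood at 16.1 and 13.2 CPM in wild-type replicates 4 and 5 and at most at 10.1 CPM in the others, and Pnoc at 6.23 and 5.40 against at most 4.02 CPM. For Dlx2, Dlx5, Dlx6 and Nts replicate 4 was the highest library, but replicate 5 was not the next. Lhx6 stood at 4.29 and 5.42 CPM against at most 6.11 CPM. Wfs1 was at 942 CPM in wild-type replicate 4, the lowest of the wild-type libraries (942 to 1434 CPM), and at 1395 CPM in replicate 5, and the part of this in the interneuron levels was not tested.

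**Figure D4:**
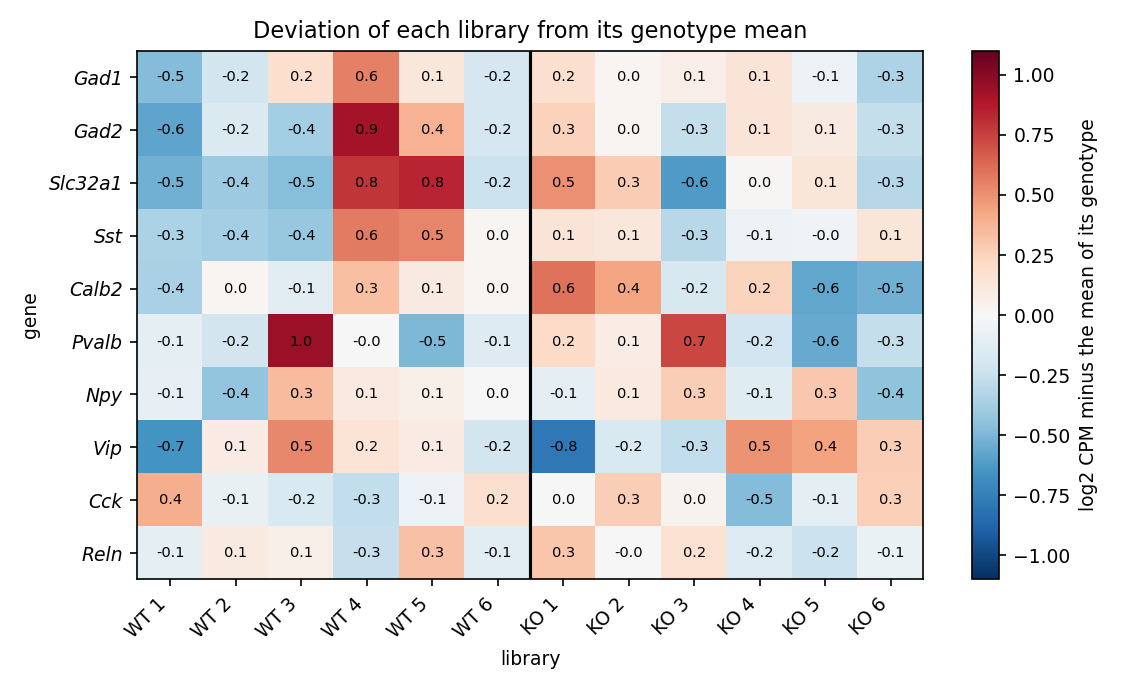
Colours and numbers give, for each gene (rows) and library (columns), the log2 CPM minus the mean of that genotype, red above and blue below it. Wild-type replicate 4 reaches 0.92 for Gad2 and 0.79 for Slc32a1, replicate 5 reaches 0.84 for Slc32a1, and Pvalb is at 0.95 in wild-type and 0.73 in Fmr1-/y replicate 3, where Slc32a1 is at -0.47 and -0.62.

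Correlations between the members were computed over the 12 libraries on log2 CPM centred within each genotype. Of the 45 pairs, 28 were positive and 17 negative with a median Pearson r of 0.09, and 2 passed 0.05 after Benjamini-Hochberg adjustment over the pairs in a two-sided permutation test. Gad2 and Slc32a1 had r = 0.90 (permutation p = 0.00053, adjusted p = 0.024) and Spearman rho = 0.90 (permutation p = 0.0009), and r was 0.93 without the 2 libraries farthest from the median of Gad2 and 0.82 without wild-type replicates 4 and 5. Slc32a1 and Sst had r = 0.90 (permutation p = 0.0012, adjusted p = 0.027) and rho = 0.84 (permutation p = 0.0023). For that pair the 2 farthest libraries were wild-type replicates 4 and 5, and without them r was 0.77 with the genotype means kept and 0.65 with the means recomputed. The third pair of these genes, Gad2 and Sst, had r = 0.84 and did not pass (permutation p = 0.0081, adjusted p = 0.071, rho = 0.71 with permutation p = 0.030), and r was 0.74 without wild-type replicates 1 and 4, 0.39 without wild-type replicates 4 and 5 and 0.38 within Fmr1-/y libraries. Neither of the first 2 pairs passed when wild-type replicate 1 or 6 or Fmr1-/y replicate 1 or 3 was left out, with 0 of 45 pairs past 0.05 in each case. Within Fmr1-/y libraries alone r was 0.89 for Gad2 and Slc32a1 and 0.71 for Slc32a1 and Sst.

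No pair among the subclass markers Pvalb, Sst, Vip, Npy and Calb2 passed the threshold. Over 12 libraries this does not show that the subclasses varied separately. Pvalb and Sst, markers of the 2 large subclasses, had r = -0.45 (permutation p = 0.18, adjusted p = 0.54, rho = -0.24 with permutation p = 0.44), which rested on replicate 3 of each genotype, since r was 0.0055 without these 2 libraries. The ratio of Pvalb to Sst was 0.185 to 0.449 in 5 wild-type libraries and 0.989 in replicate 3, and in Fmr1-/y libraries it was 0.764 in replicate 3 and at most 0.390 in the others. Gad1, although it encodes the sister enzyme of Gad2, had r = 0.79 with Gad2 (permutation p = 0.011, adjusted p = 0.071, rho = 0.58 with permutation p = 0.099), and 0.42 without wild-type replicates 1 and 4. Gad1 and Cck had r = -0.71 (permutation p = 0.011, adjusted p = 0.071, rho = -0.69 with permutation p = 0.021), and -0.53 without wild-type replicates 1 and 4. Calb2 had r = 0.62 with Gad1 (permutation p = 0.0034, adjusted p = 0.051), and 0.55 without wild-type replicates 1 and 4. With Gad2 it had r = 0.56 (permutation p = 0.00735, adjusted p = 0.071) and with Slc32a1 0.58 (permutation p = 0.025, adjusted p = 0.14). These Calb2 pairs were positive and did not pass 0.05 after adjustment.

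**Figure D5:**
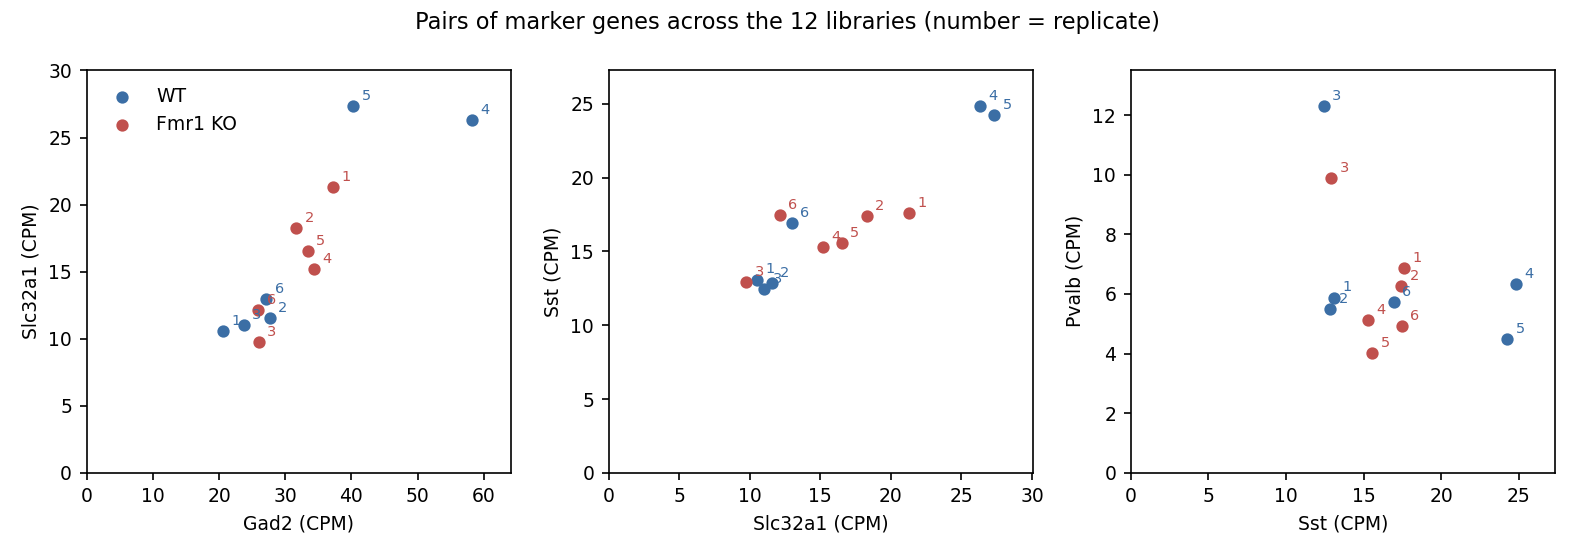
Each panel plots the CPM of a gene (y) against that of another (x) in the 12 libraries, numbered by replicate, wild-type in blue and Fmr1-/y in red. Slc32a1 follows Gad2 and Sst follows Slc32a1, with wild-type replicates 4 and 5 at the top of both, while Pvalb is highest in replicate 3 of each genotype, where Sst is low (12.4 and 12.9 CPM).

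Among the 13768 genes with a mean of at least 1 CPM, the genes most like each member were taken by Pearson r over the 12 libraries on the same centred scale, as a description with no test, since the highest of so many correlations over 12 libraries is large in any case. For Gad2 these were Pld5 (r = 0.94) and Dlx1 (0.92), for Sst Pnoc (0.92) and Slc32a1 (0.90), and for Slc32a1 Prkcd (0.94) and Gad2 (0.90). For Cck they were Cadps2 (0.99), which encodes a protein of dense-core vesicle release, and Fam131a (0.98). Gad1 was closest to Ccdc173 (0.91) and Afg3l1 (0.89), Pvalb to Pgpep1 (0.88) and Mbd2 (0.88), Vip to Zfp46 (0.94) and Fam124a (0.93), and Npy to Spats1 (0.89) and Ang (0.83). Calb2 was closest to 1700019G17Rik (0.94) and Pgbd1 (0.89), and Reln to Ppfia4 (0.83) and Zfp395 (0.82). Apart from Slc32a1 and Gad2, no member was among the 2 closest genes of another.

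The wider pathways were read from lists around the members, and no gene of any list passed an adjusted p of 0.05 in either direction in edgeR's test. The counts below are given at an unadjusted p under 0.05, which 4.29% of all genes reached as higher and 3.67% as lower in Fmr1-/y libraries, with a median log2 fold change over all genes of 0.0042. Among the 8 genes of GABA synthesis, release and uptake, 2 were higher at this level and none lower (median log2 fold change 0.02). These were the GABA transporters Slc6a13 (9.98 ± 1.87 against 13.7 ± 4.19 CPM, log2 fold change 0.45, adjusted p = 0.505) and Slc6a11 (99.2 ± 8.32 against 115 ± 16.2 CPM, log2 fold change 0.21, adjusted p = 0.549), of which the latter is known from astrocytes. The astrocyte marker Gfap was at 202 to 271 CPM in wild-type and 227 to 384 CPM in Fmr1-/y libraries. Only Fmr1-/y replicates 1 and 2, at 384 and 352 CPM, lay above the wild-type range. The part of Gfap-expressing cells in the transporter levels was not tested.

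Of the 16 interneuron transcription factors, 1 was lower at an unadjusted p under 0.05 (Npas1, 2.19 ± 0.501 against 1.54 ± 0.489 CPM, log2 fold change -0.51, adjusted p = 0.610) and none higher, with a median log2 fold change of -0.02. Of the 24 interneuron subclass markers, which include 6 of the members, 2 were lower and none higher (median -0.08), with the smallest p for Tnfaip8l3 (21.4 ± 2.78 against 16.2 ± 4.12 CPM, log2 fold change -0.40, adjusted p = 0.476). Among the 13 EF-hand calcium-binding genes, which hold Pvalb, Calb2 and the calmodulins, none reached that level in either direction (median -0.09). Calm2 (2592 CPM per kb) and Hpca (1376 CPM per kb), the gene of the pyramidal cell calcium sensor hippocalcin, far exceeded Calb2 (8.19) and Pvalb (6.19 CPM per kb).

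Of the 26 neuropeptide and granin precursors tested, 3 were higher and 1 lower at an unadjusted p under 0.05 (median log2 fold change 0.01). The lower gene was Grp, the precursor of gastrin-releasing peptide (8.44 ± 1.504 against 6.401 ± 0.855 CPM, log2 fold change -0.40, adjusted p = 0.402). Pomc had the smallest p among the higher genes (log2 fold change 1.86 ± 0.72 SE, adjusted p = 0.499), and this rested on single libraries, at 52.3 CPM in Fmr1-/y replicate 6 and 22.8 CPM in Fmr1-/y replicate 3 against 1.38 to 7.41 CPM in the other 4. In the wild type Pomc ran from 1.31 to 13.7 CPM and was likewise highest in replicate 6. Cck was second in level per length in this list, behind the granin Chgb (413 CPM per kb) and ahead of Scg2 (129 CPM per kb). None of the 10 peptide-processing genes reached an unadjusted p under 0.05 in either direction (median -0.03), and carboxypeptidase E, the product of Cpe, which trims peptide precursors, was the most abundant (926 CPM per kb).

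On the receiving side, 2 of the 16 receptor and reelin pathway genes were lower at an unadjusted p under 0.05 and none higher (median log2 fold change -0.12). Sstr3, a somatostatin receptor found on neuronal cilia, had the smallest p, at 86.2 ± 7.10 CPM against 71.6 ± 6.32 CPM (log2 fold change -0.27 ± 0.07 SE, adjusted p = 0.301). Its ligand gene Sst had a log2 fold change of -0.11. Of the 7 Cajal-Retzius markers, which include Reln and Calb2, none reached that level (median -0.0043), and Trp73, a defining gene of these cells, measured 18.4 ± 1.96 and 18.01 ± 4.15 CPM. Of the 8 dentate granule and mossy cell markers, 1 was higher (Stxbp6, log2 fold change 0.27, adjusted p = 0.410) and 1 lower (Ajap1, log2 fold change -0.19, adjusted p = 0.514), with a median of -0.08. All 8 CA1 pyramidal markers had a lower mean in Fmr1-/y libraries (median -0.10), 2 of them at an unadjusted p under 0.05, and Wfs1, whose promoter drives the Cre, was at 1272 ± 175 against 1054 ± 103 CPM (log2 fold change -0.27, adjusted p = 0.410). Of the 12 glial and vascular markers 3 were higher at this level and none lower (median 0.07). The part of these differences in composition in the levels of the 10 genes was not tested.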

How the data were processed

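RNAseq was performed on 6 wild-type and 6 Fmr1-/y libraries. The authors aligned 50-base single-end stranded reads with TopHat2 2.1.1 (Bowtie2 2.2.8) against the mm10 genome and UCSC genes, assigned them to genes by HTSeq in union mode on the strand opposite to the gene, and deposited raw read counts without normalization. Genes with at least 15 reads in total were kept. Genotypes were compared with edgeR 4.0.16 (TMM, quasi-likelihood test, no covariate) run in R 4.3.3. Benjamini-Hochberg adjustment covered all 17823 genes, at a threshold of 0.05. Standard errors were derived as the absolute log2 fold change over the root of the F statistic. The labels call the pools biological replicates.

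The members and gene lists were chosen with earlier results of these data known. Genes named besides the members are Fmr1, the cell type markers, in each list those of smallest p in each direction and highest level per length, and the closest genes by correlation (prior count 2 on log2 CPM, 100000 permutations within genotype). Dlx1, Dlx2, Dlx5, Dlx6, Lhx6, Sp9, Kcnip1, Pnoc, Nts and Sstr5 were named after their values were seen. Alternatives were DESeq2 1.42.0, limma 3.58.1 voom, other scalings, filters and thresholds, the replicate block and left-out libraries. Gene starts and ends are those of RefSeq (GRCm38, the build of mm10), matched by Entrez identifier. On the opposite strand, annotated genes overlap exons of Slc32a1 and Reln, where the stranded counting keeps the reads apart. The fit and the correlation test were tested on simulated data.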

Additional observations from a re-analysis of the deposited data

Results flagged for a closer look

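Single libraries standing apart were looked for in each of the 10 genes and both genotypes by Dixon's ratio, the distance from an extreme library to the next one as a share of the whole spread of the 6. Of these 20 searches 1 exceeded the critical value, where chance gives about 1. It was Pvalb in wild-type libraries, with replicate 3 at 12.3 CPM against 4.49 to 6.33 CPM in the others (ratio 0.764). Fmr1-/y replicate 3 was also the highest of its genotype, at 9.88 CPM, and did not exceed the critical value. Wild-type replicates 4 and 5, high together for Slc32a1 and Sst, lie close to each other, and the ratio does not mark such a pair.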

How the results depend on the processing

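None of the 10 genes passed the threshold and no list had a gene past it in any of the 21 alternatives run for each. Gad1, Cck, Npy, Calb2 and Reln kept their direction in all fits. In limma voom Gad2 was at 0.043 and Slc32a1 at 0.031 on the log2 scale, with the replicate block Gad2 was at 0.0103, and the cause was not tested. Across the fits that left out 1 library, log2 fold changes ran from -0.17 to 0.17 for Gad2, from -0.20 to 0.10 for Slc32a1, from -0.20 to 0.0144 for Sst, from -0.30 to 0.14 for Pvalb and from -0.064 to 0.18 for Vip. Without wild-type replicates 4 and 5, an alternative chosen after seeing the data, they were 0.34 for Gad2, 0.43 for Slc32a1 and 0.22 for Sst. Gad1 reached an unadjusted p of 0.035 (adjusted p = 0.582 in edgeR) without wild-type replicate 1, and without wild-type replicates 4 and 5, left out for their high values, the unadjusted p was 0.012 for Gad2 and 0.028 for Slc32a1.

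Of all genes tested 4 passed in edgeR, 84 in DESeq2, 1 with at least 10 reads in every library, 6 at a threshold of 0.1, 1 without wild-type replicates 4 and 5, and from 2 to 6 with 1 library left out. The number of member pairs correlated past the threshold, 2, was 6 without a normalization factor, 1 by Spearman's rho, from 0 to 5 with 1 library left out and 0 without wild-type replicates 4 and 5, so that these calls depend on single libraries. It was 0 without wild-type replicate 1 or 6 or Fmr1-/y replicate 1 or 3, 1 without wild-type replicate 2, 4 or 5, 4 without wild-type replicate 3 and 5 without Fmr1-/y replicate 5. Same-numbered libraries of the genotypes had a mean correlation of deviations of 0.025 over all genes, with pairs from -0.08 to 0.09. For genes with a mean log2 CPM above 1 it was 0.099 (pairs from -0.24 to 0.35) and above 5 it was 0.15 (pairs from -0.44 to 0.60). Not every pair was positive in any of the 3 sets, so the numbers were not taken to pair the pools, and the replicate block gave 4 genes. Vip, with 60 to 173 reads, is the gene for which depth limits most.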
